A study of Mus musculus with 6 samples.

Results

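*Hand2*, 6 genes for fibroblast growth factor (FGF) ligands (*Fgf1*, *Fgf2*, *Fgf7*, *Fgf9*, *Fgf10* and *Fgf18*) and 3 genes for FGF receptors (*Fgfr1*, *Fgfr2* and *Fgfr3*) were examined in the mouse uterus before embryo attachment. They were chosen by symbol, as a stromal transcription factor, FGF ligands attributed to the stroma and their receptors, and make up 10 of the 56748 genes listed. All 10 passed the filter on low counts and were tested. RNA came from uteri taken on day 4 of pregnancy, at 1600 h, with 3 samples of each group, control and *Gp130* ecKO. The sample labels give the tissue as uterus, whereas the description of the series speaks of endometrium, so how much muscle the samples held by design is not known. *Gp130* ecKO females (ecKO uteri) were *Ltf* iCre/+; *Gp130* flox/flox, in which Cre is made from the lactoferrin (*Ltf*) gene, active in the uterine epithelium of mature females and also in some immune cells. Control females are labelled WT, and the study's methods describe its controls as *Ltf* +/+; *Gp130* flox/flox or wildtype. Both groups were sexually mature and had been mated with wildtype males. The labels give their background as C57BL/6, and the study's methods as C57BL/6J. No control female carried iCre alone, so the allele of *Ltf* that holds iCre differed between the groups together with the loss of *Gp130*.

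HAND2 is a basic helix-loop-helix transcription factor of the endometrial stroma that is induced by progesterone through its receptor. It is known to restrain the production of FGF ligands by stromal cells. These ligands reach FGF receptors on the neighbouring epithelium, where the docking protein FRS2 passes the signal to the ERK and AKT kinases and favours epithelial proliferation. FGFs need heparan sulfate chains to bind their receptors, and ERK switches on feedback inhibitors such as the Sprouty and DUSP proteins. In uterine RNA the cell type that made a transcript is not seen, so the label stromal was not tested for these transcripts.

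The deposited counts summed to between 13960748, in control 3, and 25906443 per uterus. *Il6st*, the symbol of *Gp130*, had 631, 678 and 452 CPM (counts scaled to library size) in control uteri 1 to 3, against 388, 349.8 and 362 CPM in ecKO uteri 1 to 3. The groups did not overlap, with a log2 fold change of -0.68 (standard error, SE, 0.21, adjusted p = 0.120 from edgeR). A multidimensional scaling placed controls 1 and 3 at 2.09 and 2.08 on its first dimension, control 2 at 0.03, and *Gp130* ecKO from -1.47 to -1.32. Control 2 thus stood apart from the other controls on this dimension. On the second dimension controls 1, 2 and 3 lay at 1.7, -0.28 and -1.61, so controls 1 and 3 were farthest apart there, with control 2 between them. For *Hand2* and the FGF ligands and receptors examined, overlaps in CPM and calls that change without control 2 are given both ways. For other genes, and for other scales, such changes are given only in part. For example, *Glce* and *Gata2* passed the threshold without control 2 (log2 fold changes 1.63 and 2.09, adjusted p = 0.021 and 0.0191 from edgeR). *Gata2* is not described further. CPM values are counts relative to library sizes scaled by TMM, edgeR's normalization, and serve to compare 1 gene between uteri. Levels of different genes are compared only in TPM, which is also corrected for transcript length. Log2 fold changes are *Gp130* ecKO over control, with p-values from edgeR's quasi-likelihood F test adjusted over all 16605 tested genes. The labels number the samples of a group and do not say that each is another female, so these p-values measure only the spread between the samples, which may be technical.

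The promoter windows of 3 genes are shown, since *Hand2* is the regulator of the set, *Fgf9* had its lowest fold change and *Fgfr2* was its most abundant receptor. Each window runs 5′ to 3′ on the strand of its gene, from 250 bases before to 50 bases after a RefSeq transcription start (table built on GRCm38.p6), and each occurs once in GRCm39. The GRCm39 positions are chr8:57773768-57774067 on the plus strand for *Hand2*, chr14:58309893-58310192 on the plus strand for *Fgf9* and chr7:129868489-129868788 on the minus strand for *Fgfr2*. Capitals mark every E-box, the letters CANNTG that proteins of the basic helix-loop-helix class can bind.
Hand2: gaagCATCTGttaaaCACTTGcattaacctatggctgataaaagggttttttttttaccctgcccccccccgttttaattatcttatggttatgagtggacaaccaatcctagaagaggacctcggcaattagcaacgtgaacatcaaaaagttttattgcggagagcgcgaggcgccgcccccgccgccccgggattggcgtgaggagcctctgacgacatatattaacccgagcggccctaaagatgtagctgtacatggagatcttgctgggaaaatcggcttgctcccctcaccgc
Fgf9: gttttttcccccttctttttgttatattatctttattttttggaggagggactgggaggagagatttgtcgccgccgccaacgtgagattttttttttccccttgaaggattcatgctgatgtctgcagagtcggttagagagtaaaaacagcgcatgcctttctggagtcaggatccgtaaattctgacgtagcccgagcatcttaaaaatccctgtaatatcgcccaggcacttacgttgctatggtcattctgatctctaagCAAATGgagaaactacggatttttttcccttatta
Fgfr2: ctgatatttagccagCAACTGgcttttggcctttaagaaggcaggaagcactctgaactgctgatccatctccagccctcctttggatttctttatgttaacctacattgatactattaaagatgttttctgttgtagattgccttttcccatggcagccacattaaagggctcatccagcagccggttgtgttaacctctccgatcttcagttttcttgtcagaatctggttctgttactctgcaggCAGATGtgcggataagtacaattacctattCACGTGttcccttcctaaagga
The *Hand2* window held 2 E-boxes, the *Fgf9* window 1 and the *Fgfr2* window 3. An E-box stood in 72.3% of all 32851 windows of 300 bases, so these matches are usual. The form CATCTG, searched on both strands and itself an E-box, was found once each in *Hand2*, *Fgf10* and *Fgfr2* and in 17.2% of all windows. The STAT motif TTCNNNGAA, searched on both strands, was absent from the windows of *Hand2*, *Fgf2*, *Fgf7*, *Fgf9*, *Fgf10*, *Fgf18*, *Fgfr2* and *Fgfr3*, and present in 8.30% of all windows. These are matches of letters and not measured binding sites. Of 102 annotated transcripts of *Hand2os1*, the antisense RNA that leaves the *Hand2* promoter in the opposite direction, 60 start inside the *Hand2* window.

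None of the 10 genes was called between the groups at an FDR under 0.05 and more than 2-fold in edgeR's quasi-likelihood test, which called 0.157% of all tested genes. In the same test 6 of the 10 had an unadjusted p below 0.05, where 25.0% of all tested genes did. Of these 6, *Fgf1* was higher in *Gp130* ecKO, and *Hand2*, *Fgf2*, *Fgf9*, *Fgfr1* and *Fgfr3* were lower. Less strict tests called 5 of the 10, namely *Hand2*, *Fgf1*, *Fgf9*, *Fgfr1* and *Fgfr3*. Those tests were edgeR's exact test, which called 7.54% of all tested genes, its likelihood ratio test, which called 7.93%, and DESeq2, which called 9.29%. With control 2 left out, the quasi-likelihood test called *Fgf1* and *Fgf9*, where 5.08% of all tested genes were called.

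The groups were separate in CPM, with no overlap, in 4 of the 10 genes. *Fgf1* was higher in every *Gp130* ecKO uterus, and *Hand2*, *Fgfr1* and *Fgfr3* were lower. Among all tested genes 31.3% did not overlap, so the count is close to the background. Without control 2, 7 of the 10 did not overlap, against 45.6% of all tested genes, with *Fgf18* added above and *Fgf2* and *Fgf9* below. Without *Gp130* ecKO 3, also 7 did not overlap, against 45.9% of all tested genes, with *Fgfr2* added above and *Fgf2* and *Fgf7* below. The median log2 fold change of the 10 genes was -1.06, beside -0.05 over all tested genes.

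**Figure D1:**
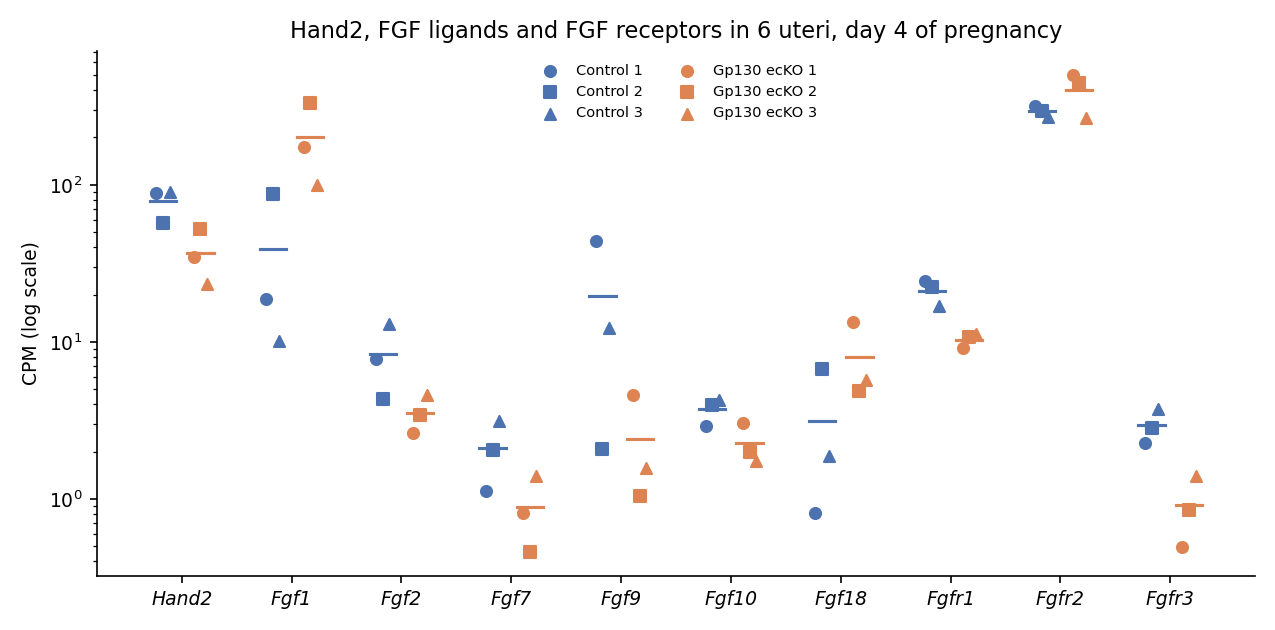
CPM on a log scale of each of the 10 genes in the 6 uteri, with control uteri in blue, *Gp130* ecKO uteri in orange, a symbol for each replicate number and a bar at the mean of each group. The groups are apart for *Hand2*, *Fgf1*, *Fgfr1* and *Fgfr3*, and control 2 (square) lies near the *Gp130* ecKO uteri for *Fgf9*.

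*Hand2* (ENSMUSG00000038193, chr8:57774011-57777677 of GRCm39, plus strand) had 89.1, 57.0 and 89.7 CPM in control uteri 1 to 3, against 34.5, 52.6 and 23.5 CPM in ecKO uteri 1 to 3. Every ecKO uterus lay below all controls, although control 2 and *Gp130* ecKO 2 nearly met. The means were 78.6 ± 18.7 CPM (SD, n = 3) and 36.9 ± 14.7 CPM (SD, n = 3), a ratio of 0.469. Its log2 fold change was -1.09 (SE 0.32, adjusted p = 0.113 from edgeR), which did not pass the threshold. It stayed between -1.44 and -0.83 when single uteri were left out, and over 18 alternative settings the adjusted p lay between 0.0292 (DESeq2) and 0.301. An exact two-sided permutation test of 3 uteri against 3 gave p = 0.1, the smallest it can give, for *Hand2* and for the other three genes without overlap.

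The antisense RNA *Hand2os1* had 19.0, 12.8 and 44.2 CPM in control uteri 1 to 3, against 9.81, 11.7 and 4.93 CPM in ecKO uteri 1 to 3. It too was lower in every *Gp130* ecKO uterus, with the highest value in control 3 (log2 fold change -1.52, SE 0.52, adjusted p = 0.139 from edgeR). Without control 3 the log2 fold change was -0.85. The libraries keep strand, but whether counting used it is not given in the sources used here. Without it, reads of *Hand2* and of *Hand2os1* could not be told apart where both overlap.

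Markers of stroma were lower in the same uteri as *Hand2*. Of 12 stromal markers, 11 had a negative log2 fold change and 7 of these an unadjusted p below 0.05 in edgeR, with a median of -0.79, and 0 were called. Their summed level was 4796 to 6141 CPM in the controls and 2694 to 3827 CPM in *Gp130* ecKO. The exception was *Nt5e*, which encodes the surface enzyme CD73, with a log2 fold change of 1.20. Within the groups the stromal sum did not follow *Hand2*. Control 2 had the lowest *Hand2* of the controls (57.0 CPM) and the highest sum (6141 CPM). *Gp130* ecKO 3 likewise had the lowest *Hand2* of its group (23.5 CPM) and the highest sum (3827 CPM). Fewer cells of a type and less RNA per cell cannot be told apart in bulk uterine RNA.

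Per 1000 CPM of the stromal markers, *Hand2* had 17.6, 9.29 and 18.7 CPM in control uteri 1 to 3, against 12.8, 15.6 and 6.15 CPM in ecKO uteri 1 to 3. On this scale the groups overlapped, with control 2 below 2 of the *Gp130* ecKO uteri. Without control 2, every *Gp130* ecKO uterus was below both other controls. The log2 difference was -0.43 (exact permutation p = 0.5), -0.75 without control 2 and -0.03 without *Gp130* ecKO 3, and -0.45 against the mean log2 level of the same markers (exact permutation p = 0.3). Relative to 10 epithelial markers *Hand2* was lower in every *Gp130* ecKO uterus, by 2.04 on the log2 scale. These scalings, also given for the ligands and receptors, were chosen after the values were seen.

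**Figure D2:**
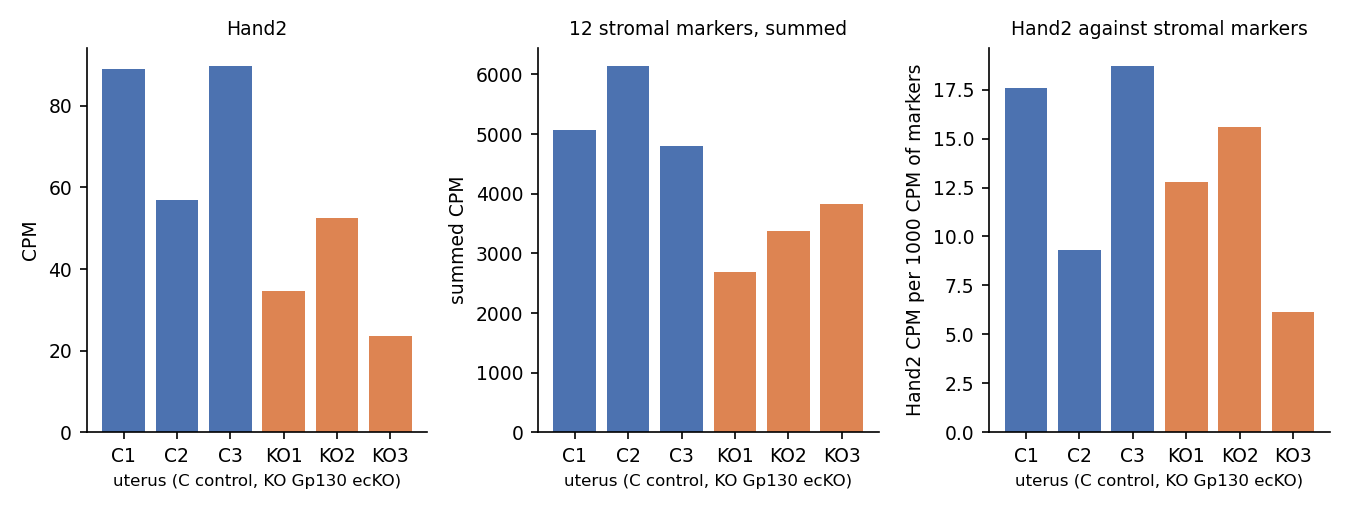
*Hand2* in CPM (left), the summed CPM of 12 stromal markers (middle) and *Hand2* CPM per 1000 CPM of those markers (right), with 1 bar per uterus for controls (C, blue) and *Gp130* ecKO (KO, orange). The groups are apart in the left and middle panels and overlap on the right, where control 2 is at 9.29 and *Gp130* ecKO 2 at 15.6.

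Markers of other cell types were also unequal between the groups. Of 10 epithelial markers, 9 had a positive log2 fold change and 4 an unadjusted p below 0.05 in edgeR. Their sum was 2369 to 4030 CPM in the controls and 5626 to 7664 CPM in *Gp130* ecKO. The largest log2 fold changes were those of *Krt19* (2.19) and *Krt8* (1.32), whereas *Wnt7a* had 0.17. The exception was *Epcam*, at -0.19 (-0.36 to 0.17 over the alternatives). By immunostaining, the study reported higher KRT8 and CDH1 in the epithelium of *Gp130* ecKO, and both are among these markers. How far their sum measures epithelial content was not tested. All 5 endothelial markers were lower at an unadjusted p below 0.05 in edgeR, with sums of 342 to 820 CPM and 185 to 332 CPM. Smooth muscle markers summed to 568 to 2781 CPM and 475 to 2994 CPM, with the ranges overlapping. No marker of these lists was at 0 in all uteri, and none was called. The part of cell composition in the values of the ligands and receptors was not tested beyond the scalings given beside them.

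*Fgf1* was the ligand with the highest level in *Gp130* ecKO and the only one of the 6 whose groups did not overlap. FGF1 binds all FGF receptors and has no signal peptide. *Fgf1* (ENSMUSG00000036585, chr18:38971717-39077186, minus strand) had 18.7, 87.8 and 10.1 CPM in control uteri 1 to 3, against 174.5, 330.0 and 100.1 CPM in ecKO uteri 1 to 3. Control 2 was far above the other controls and just below *Gp130* ecKO 3. Control uteri had a mean of 38.9 ± 42.6 CPM (SD, n = 3) and ecKO uteri a mean of 201.5 ± 117.3 CPM (SD, n = 3), 5.18 times as high. On the log2 scale the fold change was 2.37 (SE 0.82, adjusted p = 0.142 from edgeR), and 3.83 without control 2 (adjusted p = 0.0247 from edgeR). With each other uterus left out it was between 1.82 and 2.71, and over 18 alternatives the adjusted p ranged from 0.0153 to 0.300. Relative to the stromal markers *Fgf1* was higher in every *Gp130* ecKO uterus, by 3.48 on the log2 scale, 4.25 without control 2 and 2.90 without control 3. Relative to the epithelial markers the difference was 1.87 and the groups overlapped, whereas they were separate without control 2 (2.61) or *Gp130* ecKO 3 (2.23).

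*Fgf9* (ENSMUSG00000021974, chr14:58308004-58350316, plus strand) encodes a secreted ligand that acts mainly on mesenchymal receptor forms. It had 44.0, 2.08 and 12.3 CPM in control uteri 1 to 3, against 4.61, 1.04 and 1.58 CPM in ecKO uteri 1 to 3. Controls 1 and 3 were above every *Gp130* ecKO uterus, whereas control 2 was below *Gp130* ecKO 1. This gave a log2 fold change of -3.03 (SE 1.05, adjusted p = 0.144 from edgeR). It was -3.55 without control 2 (adjusted p = 0.0474 from edgeR), -1.53 without control 1 and -3.90 without *Gp130* ecKO 1, so the size rested on single uteri. The difference was -1.46 relative to the stromal markers and -3.08 relative to the epithelial markers, both with overlap. Without control 2 the groups were separate on both scales, at -2.64 and -4.28. On the epithelial scale they were also separate without *Gp130* ecKO 1, at -3.44. Without control 1 the differences were -0.45 and -2.21, both with overlap.

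*Fgf18* (ENSMUSG00000057967, chr11:33067014-33097828, minus strand), which encodes another secreted ligand, had 0.809, 6.75 and 1.87 CPM in control uteri 1 to 3, against 13.4, 4.88 and 5.68 CPM in ecKO uteri 1 to 3. Control 2 was above 2 of the *Gp130* ecKO uteri, and *Gp130* ecKO 1 was the highest. The log2 fold change was 1.32 (SE 0.76, adjusted p = 0.311 from edgeR), 2.66 without control 2, 0.87 without control 1 and 0.73 without *Gp130* ecKO 1. *Gp130* ecKO 1 also had by far the highest sum of 6 gland markers, 8729 CPM. The other *Gp130* ecKO uteri had 203 to 240.5 CPM and the controls 138 to 1068 CPM. *Prss29* (6546 CPM) and *Prss28* (1876 CPM) made up most of the sum in *Gp130* ecKO 1. *Foxa2*, *Spink1*, *Lif* and *Cxcl15* were each higher in another uterus, and *Cxcl15* was lowest in *Gp130* ecKO 1, at 17.3 CPM. The part of these markers in the *Fgf18* value was not tested. Relative to the stromal markers *Fgf18* was higher in every *Gp130* ecKO uterus, by 2.16 on the log2 scale (1.59 to 2.73 when single uteri were left out), and relative to the epithelial markers the difference was 0.55, with overlap. The second value was 1.09 without control 2 and -0.12 without control 1.

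*Fgf2* (ENSMUSG00000037225, chr3:37402473-37464257, plus strand), whose product lacks a signal peptide like FGF1, had 7.77, 4.36 and 12.9 CPM in control uteri 1 to 3, against 2.62, 3.42 and 4.60 CPM in ecKO uteri 1 to 3. The groups overlapped only between control 2 and *Gp130* ecKO 3. Its log2 fold change was -1.22 (SE 0.45, adjusted p = 0.159 from edgeR), -0.77 without control 3 and -1.50 without control 2. Relative to the stromal markers the difference was -0.34, with overlap, -0.81 without control 2 and without overlap, and 0.10 without control 3. Relative to the epithelial markers it was -1.95, with every *Gp130* ecKO uterus lower. The gene overlaps *Nudt6* on the opposite strand, so its counts also depend on whether strand was used.

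*Fgf7* and *Fgf10*, which encode ligands made by mesenchyme that act on the epithelial form of FGFR2, were near the lower end of the range. *Fgf7* (ENSMUSG00000027208, chr2:125876578-125934218, plus strand) had 1.13, 2.04 and 3.13 CPM in control uteri 1 to 3, against 0.814, 0.461 and 1.41 CPM in ecKO uteri 1 to 3, from 12 to 53 counts per uterus. *Fgf10* (ENSMUSG00000021732, chr13:118806327-118928672, plus strand) had 2.91, 3.97 and 4.27 CPM in control uteri 1 to 3, against 3.03, 2.00 and 1.74 CPM in ecKO uteri 1 to 3. In both genes 1 *Gp130* ecKO uterus exceeded control 1, and the others lay below every control. On the log2 scale the fold change was -1.20 for *Fgf7* (SE 0.56, adjusted p = 0.227 from edgeR) and -0.72 for *Fgf10* (SE 0.36, adjusted p = 0.257 from edgeR). Relative to the stromal markers the difference was -0.18 for *Fgf7* and 0.07 for *Fgf10*, both with overlap and of either sign depending on the uterus left out. Relative to the epithelial markers it was -1.79 and -1.54, with every *Gp130* ecKO uterus lower in both.

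**Figure D3:**
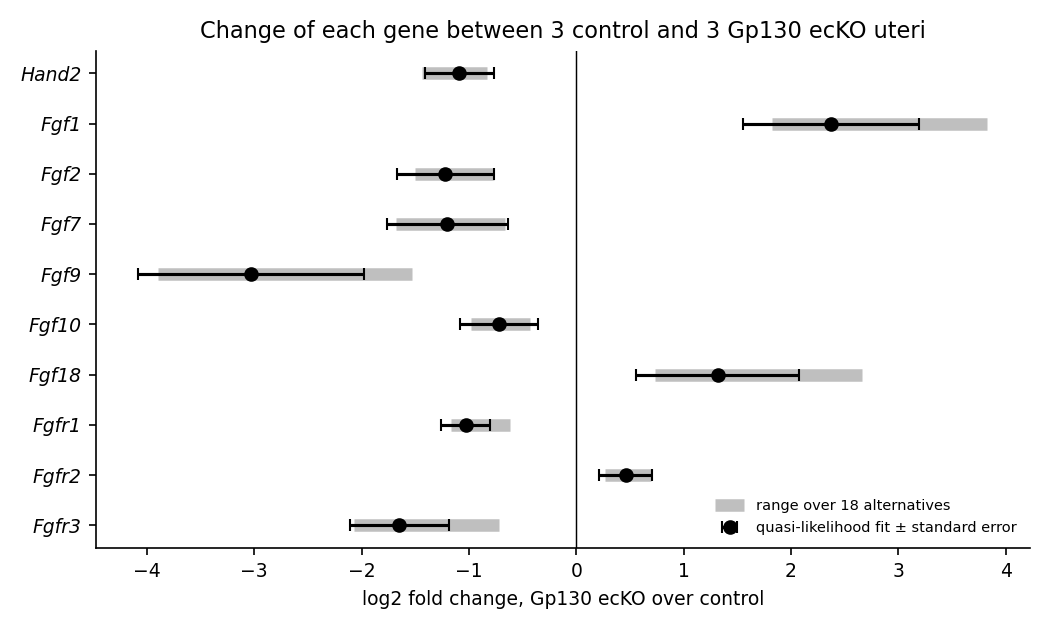
Log2 fold change of each of the 10 genes, *Gp130* ecKO over control, as a point with its SE from edgeR's quasi-likelihood fit, over a grey bar for the range across 18 alternative settings. No grey bar crosses 0, and the bar of *Fgf1* is the longest upward, from 1.82 to 3.83.

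The 3 receptors differed in direction. *Fgfr1* (ENSMUSG00000031565, chr8:26003670-26066824, plus strand), which in the uterus is known mainly from mesenchymal cells, had 24.4, 22.2 and 16.8 CPM in control uteri 1 to 3, against 9.09, 10.7 and 11.2 CPM in ecKO uteri 1 to 3. All *Gp130* ecKO uteri were below all controls, with a narrow spread in both groups. The means were 21.1 ± 3.89 CPM (SD, n = 3) and 10.3 ± 1.10 CPM (SD, n = 3). The log2 fold change of -1.03 (SE 0.23, unadjusted p = 0.00263, adjusted p = 0.0821 from edgeR) had the smallest p of the 10 genes. Leaving out single uteri gave -1.17 to -0.89, and over the alternatives the adjusted p lay between 0.00230 (DESeq2) and 0.251. On log2(TPM + 0.5) and log2(TPM + 0.1), which include the estimated transcript length, the limma estimates for *Fgfr1* were -0.62 and -0.66. Relative to the summed stromal markers *Fgfr1* differed by -0.29 on the log2 scale without overlap, and by -0.15 without control 1, and relative to their mean log2 level it differed by -0.31 with overlap. Relative to the epithelial markers every *Gp130* ecKO uterus was lower, by 1.90.

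*Fgfr2* (ENSMUSG00000030849, chr7:129763471-132725079, minus strand, a span set by 1 long transcript model) encodes the receptor whose epithelial form takes up FGF7 and FGF10. It had 316, 295 and 271 CPM in control uteri 1 to 3, against 502, 444 and 265 CPM in ecKO uteri 1 to 3. *Gp130* ecKO 1 and 2 were above every control and *Gp130* ecKO 3 below every control. This gave a log2 fold change of 0.46 (SE 0.25, adjusted p = 0.298 from edgeR), 0.27 without *Gp130* ecKO 1 and 0.70 without *Gp130* ecKO 3 (adjusted p = 0.143 from edgeR). Relative to the stromal markers *Fgfr2* was higher in every *Gp130* ecKO uterus, by 1.11 on the log2 scale (at least 0.79 when single uteri were left out). Relative to the epithelial markers the difference turned to -0.50, with overlap, so its direction depended on the reference. This difference was -0.63 without control 2 and -0.68 without *Gp130* ecKO 2, both without overlap. It was -0.31 without control 3 and -0.29 without *Gp130* ecKO 3, both with overlap.

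*Fgfr3* (ENSMUSG00000054252, chr5:33879018-33894412, plus strand) was the weakest receptor, with 2.27, 2.82 and 3.73 CPM in control uteri 1 to 3, against 0.497, 0.846 and 1.41 CPM in ecKO uteri 1 to 3. Every ecKO uterus lay below all controls, on 11 to 73 counts per uterus. The log2 fold change was -1.65 (SE 0.46, adjusted p = 0.105 from edgeR), and -2.07 to -1.37 when single uteri were left out. The limma estimates for *Fgfr3* were -0.72 on log2(TPM + 0.5) and -1.08 on log2(TPM + 0.1), and its weighted transcript length was 1244 bases in *Gp130* ecKO 1 and 3090 to 3997 bases in the other uteri. Relative to the summed stromal markers it differed by -0.61 on the log2 scale without overlap, and by -0.37 without control 3, and relative to their mean log2 level it differed by -0.63 with overlap. Against the epithelial markers it was lower in each, by 2.22.

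In TPM, *Fgfr2* had the highest level of the 10 genes in the control, 134.5 ± 3.10 TPM (SD, n = 3), followed by *Hand2* at 45.1 ± 11.4 TPM (SD, n = 3). Their ranges were separate, and those of all later neighbours in the order overlapped, from *Hand2* and *Fgf1* (15.8 ± 19.0 TPM, SD, n = 3) down through *Fgf9*, *Fgfr1*, *Fgf18*, *Fgf2*, *Fgf10*, *Fgf7* and *Fgfr3* (1.10 ± 0.352 TPM, SD, n = 3). In *Gp130* ecKO the order began with *Fgfr2* at 177.3 ± 56.4 TPM (SD, n = 3) and *Fgf1* at 100.8 ± 68.0 TPM (SD, n = 3), whose ranges overlapped. *Hand2* came next at 22.9 ± 11.1 TPM (SD, n = 3), with a range separate from that of *Fgf1* and overlapping that of *Fgf18*. *Fgf18*, at 11.5 TPM, was separate from *Fgfr1* at 4.58 TPM, and *Fgfr1* from *Fgf9* at 1.69 TPM. The last neighbours, *Fgf9*, *Fgf2*, *Fgf10*, *Fgf7* and *Fgfr3*, overlapped.

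The make-up of the ligand transcripts differed between uteri. *Fgf1* made up 16.8%, 73.2% and 17.4% of the summed TPM of the 6 ligands in control uteri 1 to 3, against 77.6%, 94.4% and 79.7% in ecKO uteri 1 to 3. *Fgf9* made up 71.6%, 2.48% and 38.6% in control uteri 1 to 3, against 3.14%, 0.367% and 1.75% in ecKO uteri 1 to 3. Controls 1 and 3 were thus led by *Fgf9*, and control 2 was led by *Fgf1*, as were all *Gp130* ecKO uteri. The 6 ligands together had 36.1, 51.6 and 20.8 TPM in control uteri 1 to 3, against 110.9, 185.5 and 51.9 TPM in ecKO uteri 1 to 3. *Gp130* ecKO 3 was barely above control 2, so the groups were separated by a narrow margin. *Fgfr2* made up between 93.9% and 94.4% of the summed TPM of the 3 receptors in the controls and between 96.0% and 97.6% in *Gp130* ecKO.

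**Figure D4:**
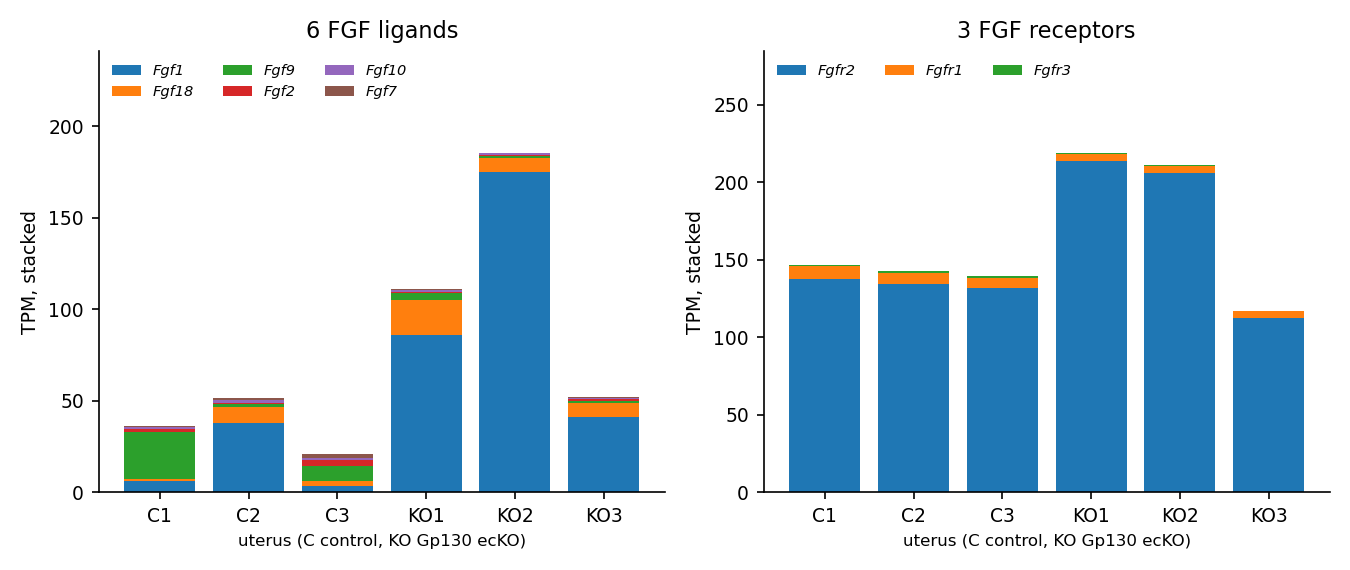
TPM of the 6 FGF ligands (left) and the 3 FGF receptors (right), stacked by gene with 1 bar per uterus for controls (C) and *Gp130* ecKO (KO). *Fgf1* fills most of the bar in control 2 and in all *Gp130* ecKO uteri (73.2% to 94.4%), *Fgf9* leads in controls 1 and 3, and *Fgfr2* fills at least 93.9% of every receptor bar.

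RSEM lists for each gene a length averaged over its transcripts, weighted by their estimated abundance, so this length moves when the mix of transcripts does. For *Fgf1*, with 11 transcripts, it was 3897, 3094 and 3918 bases in control uteri 1 to 3, against 2893, 2917 and 3068 bases in ecKO uteri 1 to 3. The controls with little *Fgf1* had the longest mean, and control 2 lay near the *Gp130* ecKO uteri, as in the level of the gene. *Fgfr1*, with 19 transcripts, had 3849, 3901 and 3705 bases in control uteri 1 to 3, against 2743, 3478 and 3320 bases in ecKO uteri 1 to 3. *Fgfr2*, with 27 transcripts, had 2903, 2934 and 2928 bases in control uteri 1 to 3, against 3339, 3325 and 2993 bases in ecKO uteri 1 to 3. In these 3, of 8 of the 10 genes whose length varied, the lengths of the groups were separate, as they were in 19.5% of the 13069 tested genes with a varying length. *Hand2* has 1 transcript of 2351 bases. Which transcripts made the difference was not measured here, since the values are per gene.

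Of the other genes of the pathway, 90 of 108 listed genes passed the filter on low counts, in 6 lists that were described by counts and not tested as sets, and edgeR's quasi-likelihood test called 0. Other FGF ligands were almost absent. Of 16, only *Fgf11*, *Fgf12* and *Fgf13* passed the filter, all with overlapping groups, with log2 fold changes of -0.40, 0.13 and -0.75, each of which moved by more than 1.5 times when a single uterus was left out. *Fgf16*, singled out after its values were seen, did not pass the filter and had 0.162, 0.116 and 0.133 CPM in control uteri 1 to 3, against 1.27, 0.346 and 1.12 CPM in ecKO uteri 1 to 3, from 73 counts in all. Every ecKO uterus exceeded all controls (log2 fold change 2.69, adjusted p = 0.116 from edgeR without the filter).

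Of 11 other receptors and coreceptors, 7 were tested and all overlapped between the groups. The smallest p was that of *Ncam1*, a cell adhesion molecule that can bind FGF receptors, with 9.22, 12.1 and 5.53 CPM in control uteri 1 to 3, against 65.0, 15.2 and 8.54 CPM in ecKO uteri 1 to 3. Its log2 fold change of 1.72 (adjusted p = 0.197 from edgeR) rested on *Gp130* ecKO 1 and was 0.40 at its lowest over the alternatives. *Flrt3* and *Flrt2*, which encode membrane proteins that bind FGF receptors, had log2 fold changes of -0.78 (-0.30 without control 2) and -0.47 (-0.17 without control 1).

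All 21 genes for heparan sulfate proteoglycans and the enzymes that build or trim their chains were tested. At an unadjusted p below 0.05 in edgeR, 3 were higher and 4 lower in *Gp130* ecKO, where 25.0% of all tested genes passed. The groups did not overlap in 8, where 31.3% of all tested genes did not, so both counts are near the background. The median log2 fold change was 0.07, and -0.11 to 0.23 when single uteri were left out. The smallest p-values belonged to the extracellular sulfatases *Sulf1* (log2 fold change -1.05, adjusted p = 0.0865 from edgeR) and *Sulf2* (-1.23, adjusted p = 0.102 from edgeR, and -0.75 without control 3), and to *Hspg2*, which encodes the basement membrane proteoglycan perlecan (adjusted p = 0.108 from edgeR). *Sulf1* had 36.7, 32.0 and 52.3 CPM in control uteri 1 to 3, against 20.3, 22.3 and 15.9 CPM in ecKO uteri 1 to 3. *Sulf2* had 40.4, 40.4 and 87.9 CPM in control uteri 1 to 3, against 27.6, 22.9 and 21.4 CPM in ecKO uteri 1 to 3. *Hspg2* had 158, 145 and 126 CPM in control uteri 1 to 3, against 42.6, 87.3 and 85.2 CPM in ecKO uteri 1 to 3. In all of them every ecKO uterus lay below all controls, and control 3 was the highest for both sulfatases. *Hs6st1* and *Hs2st1*, which encode enzymes that add sulfate to the chains, were higher in every *Gp130* ecKO uterus, with log2 fold changes of 0.60 and 0.45. *Glce*, also of this list, was higher in every *Gp130* ecKO uterus by more, with a log2 fold change of 1.06 (adjusted p = 0.142 from edgeR).

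Of 23 genes that relay the signal from the receptor to ERK and AKT, 5 were higher and 2 lower at an unadjusted p below 0.05 in edgeR, and 9 did not overlap. These counts too are near the background of 25.0% and 31.3% of all tested genes, and the median log2 fold change was 0.05, and -0.04 to 0.07 when single uteri were left out. *Pik3r1*, the regulatory subunit of PI3K, had 127, 179 and 202 CPM in control uteri 1 to 3, against 383, 356.5 and 310.3 CPM in ecKO uteri 1 to 3 (log2 fold change 1.05, adjusted p = 0.0732 from edgeR). *Frs2*, the docking protein of FGF receptors, had 40.9, 48.5 and 40.5 CPM in control uteri 1 to 3, against 73.2, 73.5 and 65.0 CPM in ecKO uteri 1 to 3 (log2 fold change 0.70, adjusted p = 0.0821 from edgeR). Both were higher in every *Gp130* ecKO uterus. The kinase gene *Akt2* was lower in each, with a log2 fold change of -0.49 (adjusted p = 0.118 from edgeR).

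Among 17 genes that respond to FGF and ERK or feed back on them, 15 had a negative log2 fold change, 10 were lower and 1 higher at an unadjusted p below 0.05 in edgeR, and in 12 the groups did not overlap, beside 25.0% and 31.3% of all tested genes. The median log2 fold change was -0.86, beside -0.05 over all tested genes, and 0 were called. The medians of the stromal and endothelial markers were also negative, -0.79 and -1.26, and that of the epithelial markers was 0.76, and their part in this list was not tested. DESeq2 called 6 and edgeR's exact test 5, beside 9.29% and 7.54% of all tested genes. These genes also respond to other growth factors and cytokines, so they do not report FGF alone. The immediate early gene *Egr1* had the smallest p-value (log2 fold change -2.36, adjusted p = 0.0548 from edgeR). It was followed by *Fos* (-2.38, adjusted p = 0.0638 from edgeR), also an immediate early gene. The growth regulator *Myc* came next (-1.20, adjusted p = 0.0956 from edgeR). Without control 2, *Egr1* (-2.61, adjusted p = 0.00795 from edgeR) and *Fos* (-2.64, adjusted p = 0.0202 from edgeR) were called. In that fit 5.08% of all tested genes were called. *Fos* had 88.4, 28.8 and 40.1 CPM in control uteri 1 to 3, against 8.05, 9.81 and 12.4 CPM in ecKO uteri 1 to 3, with control 2 the lowest control.

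The ERK phosphatase gene *Dusp6* had 91.5, 78.5 and 66.6 CPM in control uteri 1 to 3, against 47.2, 30.5 and 52.4 CPM in ecKO uteri 1 to 3 (log2 fold change -0.86). *Dusp4*, of the same family, had 2.31, 2.85 and 16.1 CPM in control uteri 1 to 3, against 1.27, 0.769 and 0.622 CPM in ecKO uteri 1 to 3 (log2 fold change -2.97), with control 3 far above the rest. Without control 3 the log2 fold change of *Dusp4* was -1.55. In both, and in *Dusp5* (-1.43), the feedback inhibitor *Spry4* (-1.19) and the ETS factors *Etv4* (-1.41, and -0.88 without control 1) and *Etv5* (-0.76, and -0.45 without *Gp130* ecKO 2), every ecKO uterus lay below all controls. Without control 2 *Dusp5* was called (-1.71, adjusted p = 0.0455 from edgeR), where 5.08% of all tested genes were. *Spry2* (-0.01) and *Il17rd* (-0.04) overlapped and had either sign when single uteri were left out, and the feedback inhibitor *Spred1* was higher in every *Gp130* ecKO uterus (0.46).

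**Figure D5:**
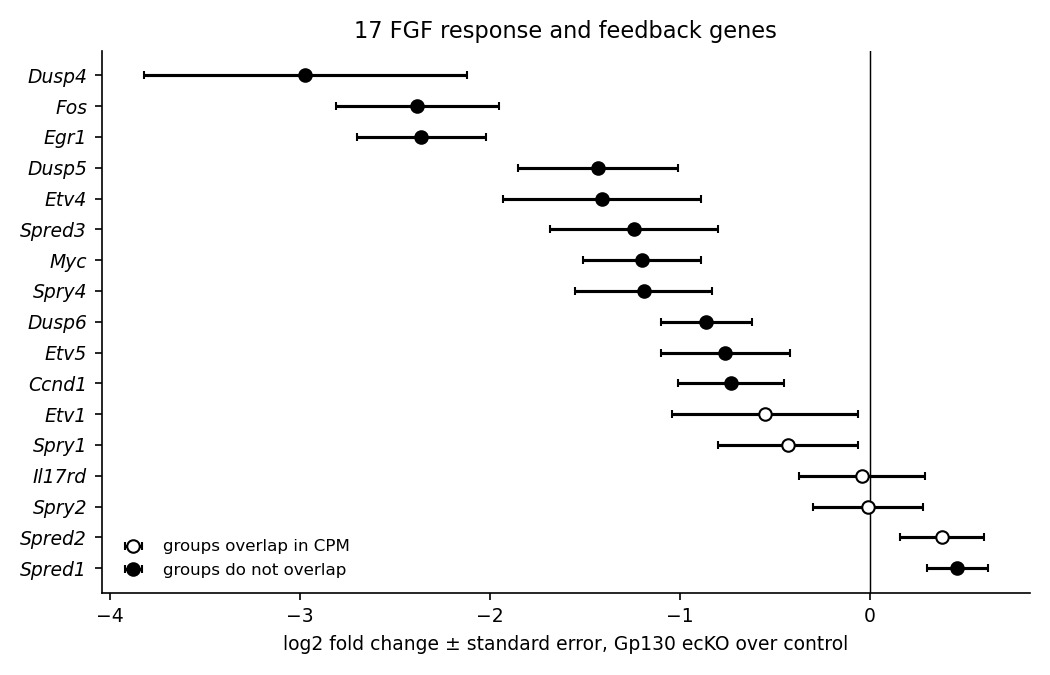
Log2 fold change, *Gp130* ecKO over control, with its SE for 17 genes that respond to or feed back on FGF and ERK signaling, with filled points where the groups were separate in CPM. Of the 17, 15 lie below 0, from -2.97 for *Dusp4* (-1.55 without control 3) to -0.01 for *Spry2*, and the filled point above 0 is *Spred1* at 0.46.

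Of 20 genes upstream of *Hand2*, beside it or partnering with its protein, 19 were tested, 9 were lower and 1 higher at an unadjusted p below 0.05 in edgeR, and 8 did not overlap, beside 25.0% and 31.3% of all tested genes. The median log2 fold change was -0.83, and -0.51 without control 1, beside -0.05 over all tested genes and -0.79 over the 12 stromal markers. The part of stromal composition in this list was not tested. The quasi-likelihood test called 0, whereas DESeq2 called 8 and edgeR's exact test 5, beside 9.29% and 7.54% of all tested genes. The progesterone receptor gene *Pgr* had 57.2, 202 and 128 CPM in control uteri 1 to 3, against 172, 203 and 272 CPM in ecKO uteri 1 to 3, so the groups overlapped and control 1 was the lowest (log2 fold change 0.74, adjusted p = 0.308 from edgeR). It was 0.41 without control 1 and 1.25 without control 2. Without control 2 every *Gp130* ecKO uterus was above both other controls for *Pgr*, where 45.6% of all tested genes did not overlap. The estrogen receptor gene *Esr1* was the gene with p below 0.05 that was higher (log2 fold change 1.42, adjusted p = 0.0548 from edgeR). Without control 2 *Esr1* was called (1.62, adjusted p = 0.0235 from edgeR), where 5.08% of all tested genes were.

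*Twist1* and *Tcf4* encode basic helix-loop-helix proteins, the class of HAND2, and TCF4 is of the E proteins with which such factors pair. *Twist1* had 9.34, 6.63 and 8.60 CPM in control uteri 1 to 3, against 1.76, 2.65 and 2.69 CPM in ecKO uteri 1 to 3 (log2 fold change -1.78, adjusted p = 0.0636 from edgeR). Without control 2 *Twist1* was called (-1.88, adjusted p = 0.0403 from edgeR). *Tcf4* had 263, 195 and 241 CPM in control uteri 1 to 3, against 113, 149 and 82.4 CPM in ecKO uteri 1 to 3 (log2 fold change -1.02, adjusted p = 0.0883 from edgeR). Both were lower in every *Gp130* ecKO uterus, as were *Twist2* (-1.13), *Bmp2* (-2.39, and -1.53 without control 3, its highest value), *Il15* (-1.30) and *Hoxa10* (-0.83). Without control 2, *Bmp2* (-2.75, adjusted p = 0.0322 from edgeR) and *Il15* (-1.53, adjusted p = 0.0408 from edgeR) were also called. In that fit 5.08% of all tested genes were called. The E protein genes *Tcf3* (-0.13) and *Tcf12* (-0.08) and the epithelial signal *Ihh* (-0.91, and -0.38 without control 1) and its stromal effector *Nr2f2* (-0.25) overlapped. When single uteri were left out, *Tcf3* ranged from -0.24 to -0.0, *Tcf12* from -0.18 to 0.12 and *Nr2f2* from -0.43 to -0.05. Without control 2, *Ihh* was lower in every *Gp130* ecKO uterus than in both other controls (-1.21, adjusted p = 0.0547 from edgeR). In that setting 45.6% of all tested genes did not overlap. *Hand1*, the nearest relative of *Hand2*, had 0 counts in all uteri. *Hoxa10* is also 1 of the 12 stromal markers.

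Genes whose pattern over the 6 uteri was most like that of a member were sought among 11867 genes by Pearson's r of log2(CPM + 0.5). The points share the 2 groups and the libraries, so r here describes likeness and carries no test. Nearest to *Hand2* were *Syde1* (r = 0.995), *Upf1* (r = 0.992) and *Apaf1* (r = 0.991). Nearest to *Fgf1* were *Gm11175* (r = 0.998), *Clstn1* (r = 0.997) and *Mrgpre* (r = 0.996). Nearest to *Fgf9* were *Ndrg1* (r = 0.997), *Idh2* (r = 0.993) and *Fam210a* (r = 0.993). *Clstn1*, which encodes a membrane protein of the calsyntenin family, had 171, 385 and 107 CPM in control uteri 1 to 3, against 572, 974 and 437 CPM in ecKO uteri 1 to 3. It repeated the high value of *Fgf1* in control 2 and the highest value in *Gp130* ecKO 2.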

How the data were processed

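RNA-seq of uteri, as the sample labels say (the series' description says endometrium), was analysed in 3 control and 3 *Gp130* ecKO samples. Per the labels and the study's methods, the authors trimmed single reads of strand-specific poly(A) libraries with fastp 0.23.2, removed ribosomal RNA reads with SortMeRNA, mapped to GRCm39 with STAR 2.7.10a and estimated counts with RSEM 1.3.3. The annotation version and the strand setting are not given in the sources used here. The authors deposited 1 table per uterus with expected counts, TPM, FPKM and a transcript length weighted by abundance for 56748 genes. The deposited FPKM values were not used. RSEM divides reads that fit several genes, so counts of overlapping genes depend on its model.

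GENCODE M39 (GRCm39) gave symbols, coordinates and overlapping genes, and 56017 of the 56748 identifiers were found in it. Expected counts were rounded, filtered with filterByExpr (16605 genes), scaled by TMM and compared in R 4.3.3 with edgeR 4.0.16 (quasi-likelihood F test without the legacy setting, Benjamini-Hochberg adjustment). Genes were called at an FDR under 0.05 and more than 2-fold. The SE was computed as the log2 fold change over the root of F. Exact permutation tests used log2(CPM + 0.5). limma 3.58.1 on log2 TPM and DESeq2 1.42.0 were among the alternatives. The fit was tested on simulated data.

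The 10 genes, 6 pathway lists and marker lists were chosen with earlier results of these data known. The text names all 10 genes, from each list the 3 with the smallest p and others that define the pathway, and for *Hand2*, *Fgf1* and *Fgf9* the 3 genes of highest correlation with a mean CPM of at least 5. Promoter windows came from RefSeq for 8 of the 10 genes. *Fgfr1* has no entry there. No pair of uteri of a group had nearly identical counts.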

Additional observations from a re-analysis of the deposited data

How the results depend on the processing

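The log2 fold changes of the 10 genes kept their sign in all 18 planned settings, which changed the test, normalization, filter, rounding or unit, used the replicate number as a block, or left out 1 uterus. Calls depended on the test. The number of called genes was 26, and it was 7 with the legacy setting, 1252 with edgeR's exact test, 1317 with its likelihood ratio test, 1542 with DESeq2, 105 without a filter, 88 and 85 with limma on log2(TPM + 0.5) and log2(TPM + 0.1), and 4149 at an unadjusted p below 0.05. With each uterus left out it ranged from 0, without *Gp130* ecKO 3, to 843, without control 2. With the replicate number as a block it was 6, and 0 of the 10 genes were called. The numbers do not pair the uteri, since same-numbered uteri deviated from their group means with correlations of 0.102, 0.0613 and -0.190.

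Of the 10 genes, 5 were called with the exact test, 5 with the likelihood ratio test and 5 with DESeq2, between 0 and 2 with each uterus left out, and 6 passed an unadjusted p. The log2 fold changes that passed in these 3 tests were -1.09, -1.09 and -1.08 for *Hand2*, 2.37, 2.37 and 2.39 for *Fgf1*, -3.01, -3.01 and -3.01 for *Fgf9*, -1.03, -1.03 and -1.02 for *Fgfr1*, and -1.66, -1.66 and -1.65 for *Fgfr3*. With each uterus left out, *Fgf1* ranged from 1.82 to 3.83 and *Fgf9* from -3.90 to -1.53. With single uteri left out, 4 to 7 of the 10 genes did not overlap, beside 36.5% to 45.9% of all tested genes. This alternative was chosen after seeing the data. Relative to markers, also chosen after seeing the data, *Fgf10* turned to 0.07 and 0.05 (stromal sum and stromal mean) and *Fgfr2* to -0.50 (epithelial sum). With single uteri also left out, the difference relative to the stromal sum ranged from -0.81 to 0.10 for *Fgf2*, from -0.45 to 0.17 for *Fgf7* and from -0.26 to 0.32 for *Fgf10*, and relative to the epithelial sum from -0.12 to 1.09 for *Fgf18*. limma on log2(TPM + 0.5) gave -0.79 for *Fgf2*, -0.66 for *Fgf7*, -1.97 for *Fgf9* and -0.43 for *Fgf10*. The cause of these differences was not tested.

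In the lists, FGF response genes had 5, 5 and 6 calls with the exact test, the likelihood ratio test and DESeq2, 1 without a filter and 0 to 3 with each uterus left out. *Hand2* upstream and partner genes had 5, 6 and 8, 1 without a filter, 1 with each limma fit and 0 to 5. Heparan sulfate genes had 2, 2 and 2, and 0 to 1. Relay genes had 1, 1 and 1. Depth limits *Fgf7* and *Fgfr3* most, with as few as 12 and 11 counts in a uterus.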

Other observations

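Marker lists that enter no result above had the following summed levels. Macrophage markers (5 genes) summed to 129 to 192 CPM in the controls and 140.0 to 205 CPM in *Gp130* ecKO. Of these, the mannose receptor gene *Mrc1* alone did not overlap between the groups, with 24.8, 24.5 and 28.9 CPM in control uteri 1 to 3, against 7.05, 11.1 and 14.0 CPM in ecKO uteri 1 to 3 (log2 fold change -1.28, adjusted p = 0.0804 from edgeR). It was singled out after its values were seen. The other macrophage markers overlapped and differed in sign, with log2 fold changes of -0.55 for *Adgre1*, -0.60 for *Csf1r*, 0.39 for *Cd68* and 0.52 for *Cd14*. Over the 18 alternatives *Adgre1* ranged from -1.21 to -0.25 and *Csf1r* from -1.0 to -0.38. *Cd68* ranged from -0.07 to 0.70, so its sign turned, and *Cd14* from 0.22 to 0.83. Lymphocyte and NK cell markers (5 genes) summed to 22.8 to 53.9 CPM and 9.62 to 37.9 CPM, and mesothelial markers (4 genes) to 33.9 to 173 CPM and 37.2 to 95.6 CPM. Red blood cell markers (2 genes) summed to 119 to 238 CPM and 25.3 to 214 CPM, and adipocyte markers (3 genes) to 2.91 to 4.13 CPM and 0.271 to 1.38 CPM. Blastocyst markers (5 genes) summed to at most 2.33 CPM in any uterus, and *Tfap2c* made up most of the sum in each.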
